A study of Mus musculus with 8 samples.

Results

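The accessible sites at the monocyte genes Irf8 and Csf1r were described in mouse MPP2 cells by ATAC-seq, which reads open chromatin by where a transposase can insert into DNA. The members were all peaks of the deposited count table that overlap 1 of 2 mm9 windows, chromosome 8 from 123200000 to 123290000 for Irf8 and chromosome 18 from 61255000 to 61300000 for Csf1r. The rule used positions and no measured value, but the windows were chosen with earlier results of these data known. It found 28 of 134473 peaks, 20 at Irf8 and 8 at Csf1r. All libraries came from bone marrow of C57BL/6 mice aged 8 to 12 weeks, with 500 sorted cells in each. MPP2 cells are multipotent progenitors, here lineage-negative, Sca1+ and Kit+ (LSK) cells that carry CD150 and CD48 and lack Flt3. All were sorted as Gata1+, and 4 libraries held Vwf+Gata1+ cells and 4 held Vwf-Gata1+ cells. The labels do not name the reagents that reported Vwf and Gata1, nor whether each replicate was a separate animal. The p-values therefore cover only the spread between libraries, which may be technical.

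Irf8 is a transcription factor of the interferon regulatory factor family that directs progenitors toward monocytes and dendritic cells and restrains neutrophil output. Csf1r is the receptor tyrosine kinase for the growth factors CSF1 and IL-34, on which monocytes and macrophages depend. In mouse myeloid progenitors Irf8 is controlled by distal enhancers, among them 1 about 56 kb before the gene. In macrophages Csf1r is controlled by an enhancer in its first introns known as FIRE, which is bound by the ETS factor PU.1. MPP2 cells lean toward megakaryocytes and red cells, and neither gene is a marker of those lineages. The comparison asks whether these monocyte loci differ in openness between the Vwf+ and Vwf- cells.

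The promoter of Irf8 is shown because the peak with the most counts at that locus covered the gene start. The sequence is RefSeq's for GRCm38.p6, a build other than that of the peaks, at chr8:120736108-120736407 on the plus strand, from 250 bases before to 50 bases after the start. Capitals mark matches to GGAA (the core of ETS sites), GAGGAAGT (a PU.1 type ETS site), TTCNNNGAA (STAT), GAAANNGAA (IRF), TGATAA (for GATA factors) and TGACTCA (for AP-1), searched on both strands.
Irf8 promoter: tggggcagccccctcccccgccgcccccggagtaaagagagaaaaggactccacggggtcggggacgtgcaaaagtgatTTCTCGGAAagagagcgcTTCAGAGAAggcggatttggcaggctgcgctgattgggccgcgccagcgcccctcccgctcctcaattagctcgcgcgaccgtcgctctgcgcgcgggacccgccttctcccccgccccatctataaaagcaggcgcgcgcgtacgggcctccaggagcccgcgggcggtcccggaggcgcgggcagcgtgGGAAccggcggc
The window held 2 matches to the STAT motif, and 8.3% of 32851 promoter windows held any match to it. It also held 2 matches to GGAA, of which the first lies inside the first STAT match, and 96.0% of promoter windows held GGAA. The PU.1, IRF, GATA and AP-1 letters had 0 matches each, and 3.2%, 8.56%, 9.05% and 5.2% of windows held them. The sequence was rich in CpG, with 38 CpG pairs where the median window had 7, and 95.05% of windows had fewer.

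Signal is given as CPM, the count relative to the TMM-scaled library size, and total counts ran from 4628997 to 7753538 per library. CPM grows with the width of a peak, so CPM per kb of peak is given where levels of different peaks are set side by side. It is an average over the whole called width, weak edges included, and does not give the height at the centre of a peak. Distances run from the centre of a peak to the approximate mm9 start of the gene, 123260300 for Irf8 and 61265200 for Csf1r. At Irf8, 15 peaks lay upstream of the start, 1 over it, 3 in the gene body and 1 downstream. At Csf1r, 1 peak lay within 1 kb of the start, 5 in the gene body and 2 just beyond the gene end, beside the neighbouring gene Hmgxb3. No Csf1r peak lay before the start in the window. The Irf8 window began at 123200000 and the Csf1r window at 61255000, so the first reached much further before its gene. The peaks covered 9867 bp at Irf8 and 4733 bp at Csf1r, which is 10.96% and 10.52% of their windows. Peaks were not assigned to target genes, and the lncRNA gene Gm39265 also lies between Irf8 and its upstream neighbour Cox4i1.

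**Figure D1:**
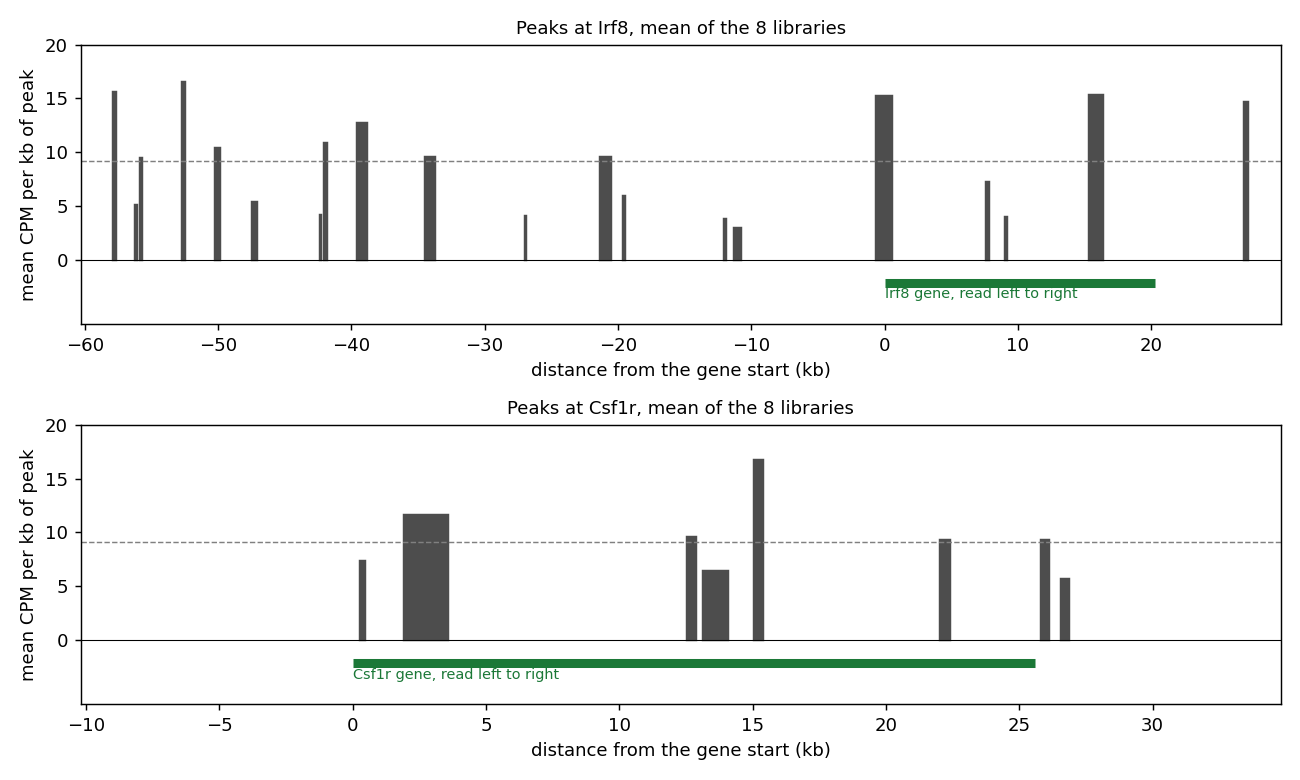
The peaks at Irf8 (top) and Csf1r (bottom), drawn to scale along the distance from the gene start in kb, with the mean of the 8 libraries as CPM per kb of peak on the vertical axis and the gene as a green bar. The dashed line is the median of all tested peaks, 9.13 CPM per kb. Within the windows, most Irf8 peaks lie before the gene and all Csf1r peaks lie after the gene start. The Irf8 window reaches much further before its gene, so the layouts are not compared over equal lengths.

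Both loci were open in every library and dense in peaks against genome windows that were not placed on genes. Windows placed on other genes were not compared, so the density is not shown to be particular to these loci. When the genome was divided into consecutive 90 kb windows, 9704 of 29355 held no peak, and among those with a peak the median was 5. The 20 peaks at Irf8 stood above 98.5% of all windows and 97.8% of those with a peak. Of 58697 windows of 45 kb, 25818 held no peak, and the median of the others was 3 peaks. The 8 at Csf1r stood above 91.9% of all these windows and 85.6% of those with a peak. The summed signal averaged 104 CPM at Irf8, above 88.4% of all windows and 82.7% of those with a peak. At Csf1r it averaged 46.4 CPM, above 86.4% and 75.7%. The single peaks were ordinary in strength. Of the 28 peaks, 23 had enough counts to be tested, and 12 of these lay above the median of 4.47 CPM over the 97040 tested peaks. None reached the 90th percentile of 27.1 CPM. Per kb of peak the median member stood at percentile 53.2 of tested peaks, and the highest at percentile 77.2.

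No peak at either gene differed between the subpopulations past an adjusted p of 0.05. The call rate over the whole table was low as well, with 14 of 97040 tested peaks called (0.0144%). At an unadjusted p under 0.05 there was 1 of 23 tested peaks at these loci, or 4.35%, against 6.72% of all tested peaks. The 2 groups of libraries overlapped at all 28 peaks, while 3.88% of all tested peaks had groups that did not overlap. The lowest adjusted p was 0.74 at Irf8 and 0.82 at Csf1r (edgeR's quasi-likelihood test, Benjamini-Hochberg over 97040 peaks). This is not a finding of equal openness, and the 95% intervals give its limits. The interval lay within 2-fold in either direction at 20 of 23 tested peaks (87.0%), as at 85.6% of all tested peaks. In bulk cells, a site open in fewer cells and a site less open in each cell cannot be told apart.

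The wide peak over the Irf8 start (123259621 to 123260860, 1240 bp) had the most signal of that locus in CPM. It had 19.6, 17.45, 16.7 and 24.0 CPM in replicates 1 to 4 of Vwf+Gata1+ cells and 19.9, 16.6, 18.3 and 19.0 CPM in replicates 1 to 4 of Vwf-Gata1+ cells. Replicate 4 of Vwf+Gata1+ cells was the highest, and the remaining 7 libraries were interleaved. The means were 19.5 ± 3.28 and 18.4 ± 1.38 CPM (SD, n = 4 each), and the log2 fold change was 0.09 ± 0.13 (SE; 95% interval -0.16 to 0.34; adjusted p by edgeR = 0.945). Here and throughout, a positive log2 fold change means more signal in Vwf+Gata1+ cells. The interval corresponds to a ratio between 0.893 and 1.27, so a 1.5-fold difference in either direction lay outside it. Its mean signal stood at percentile 85.4 among tested peaks, and its signal per kb, 15.3 CPM, at percentile 73.8. From 0.56 to 7.51 kb after the start the table held no peak, a stretch in which RefSeq places the start of a second Irf8 transcript, 2.28 kb after the first.

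In the interval set for the enhancer about 56 kb before the gene, 3 narrow peaks had their centres between 53 and 59 kb before the start. Whether any of these peaks covers the enhancer itself was not analysed here. The outermost, at 57.8 kb (123202346 to 123202678), had 7.24, 4.32, 3.21 and 6.47 CPM in Vwf+Gata1+ libraries and 5.88, 4.31, 4.68 and 5.84 CPM in Vwf-Gata1+ libraries. Per kb of peak it was among the denser of the locus, with 15.7 CPM per kb, at percentile 74.9 of tested peaks. The peak at 55.8 kb (123204383 to 123204632) had 2.50, 3.94, 2.52 and 0.863 CPM against 2.22, 2.15, 2.54 and 2.34 CPM. The peak at 56.2 kb (123203982 to 123204250) had few counts, with 1.19, 0.938, 0.688 and 1.87 CPM against 1.96, 1.85, 1.95 and 0.73 CPM. It had only 3 to 15 counts per library and stood at percentile 1.02 of tested peaks by CPM, with 5.19 CPM per kb. The log2 fold changes were 0.08 ± 0.22 at 57.8 kb, -0.39 ± 0.40 at 56.2 kb and 0.05 ± 0.33 at 55.8 kb (SE), with edgeR adjusted p of 0.978, 0.914 and 0.992. At 56.2 kb the 95% interval ran from -1.19 to 0.42, so a 2-fold lower signal in Vwf+Gata1+ cells was not outside it. Without replicate 4 of Vwf+Gata1+ cells the log2 fold change there was -0.71.

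Further inward the upstream peaks were mostly wider, and their signal per kb did not rise toward the gene. The peaks at 52.6 kb (123207517 to 123207824) and 50.1 kb (123209986 to 123210438) had nearly equal group means. At 52.6 kb the signal was 5.17 ± 0.763 CPM in Vwf+Gata1+ libraries and 5.05 ± 0.388 CPM in Vwf-Gata1+ libraries, and at 50.1 kb it was 4.70 ± 0.136 and 4.78 ± 1.04 CPM (SD, n = 4 each). The 4 Vwf+Gata1+ libraries at 50.1 kb lay between 4.58 and 4.88 CPM, inside the range of 3.54 to 6.05 CPM of the other group. Their 95% intervals ran from -0.41 to 0.43 and from -0.45 to 0.44 on the log2 scale. The site at 52.6 kb had the highest signal per kb of the locus, 16.6 CPM.

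The peak at 47.3 kb before the start (123212751 to 123213225) was the one member with an unadjusted p under 0.05. Its signal was 3.03, 2.25, 4.35 and 3.02 CPM in Vwf+Gata1+ libraries and 2.22, 1.85, 1.56 and 2.48 CPM in Vwf-Gata1+ libraries. Replicate 3 of Vwf+Gata1+ cells was the highest, and replicate 2 of that group lay below replicate 4 of the other, so the groups overlapped. The means were 3.16 ± 0.873 and 2.03 ± 0.406 CPM (SD, n = 4 each), from 12 to 23 counts per Vwf+Gata1+ library and 8 to 17 per Vwf-Gata1+ library. The log2 fold change of 0.59 ± 0.29 (SE) was the largest of all members, and its edgeR adjusted p was 0.74. With total count scaling, DESeq2 or limma-voom, 0 members had an unadjusted p under 0.05. Its signal per kb, 5.46 CPM, was at percentile 17.8.

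**Figure D2:**
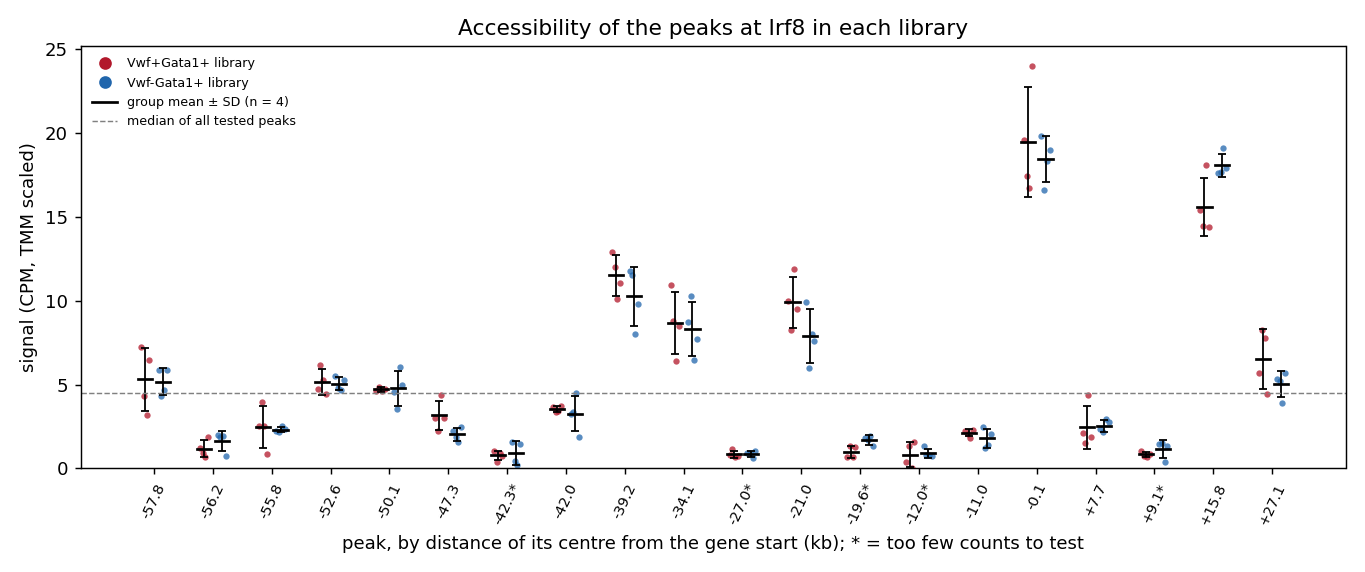
Signal of the 20 peaks at Irf8 in CPM after TMM scaling, 1 point per library, ordered by distance from the gene start in kb, with group means and SD (n = 4) in black. The points of both groups overlap at every peak, and the wide peaks at the start and 15.8 kb after it have the most CPM.

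The broad upstream sites at 39.2, 34.1 and 21.0 kb before the start were 854 to 921 bp wide and held the most upstream CPM. Per kb they had 12.8, 9.60 and 9.66 CPM, below the narrower peaks at 57.8 and 52.6 kb. At 39.2 kb (123220656 to 123221509) the libraries had 12.9, 12.0, 10.1 and 11.1 CPM against 11.8, 11.5, 8.00 and 9.78 CPM. At 34.1 kb (123225722 to 123226605) they had 10.9, 8.82, 6.42 and 8.48 CPM against 8.76, 10.3, 6.44 and 7.73 CPM. Replicate 3 was the lowest library of each group at 34.1 kb, and what a shared replicate number stands for is not in the labels. The log2 fold changes were 0.16 ± 0.16 and 0.08 ± 0.18 (SE, adjusted p by edgeR = 0.907 and 0.974). At 21.0 kb (123238849 to 123239769) the values were 10.01, 8.26, 11.9 and 9.49 CPM against 9.93, 6.00, 8.00 and 7.59 CPM. The means there were 9.92 ± 1.52 and 7.88 ± 1.62 CPM (SD, n = 4 each), and the log2 fold change was 0.31 ± 0.18 (SE; 95% interval -0.04 to 0.67; adjusted p by edgeR = 0.786).

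The remaining upstream peaks had low counts. Those tested lay at 42.0 and 11.0 kb, with 3.41 and 1.94 CPM on average over the 8 libraries, and log2 fold changes of 0.16 ± 0.26 and 0.23 ± 0.32 (SE). The peak at 42.0 kb was 313 bp wide and had 10.9 CPM per kb (percentile 59.4), above the sites at 34.1 and 21.0 kb. The peak at 11.0 kb was 636 bp wide but had 3.06 CPM per kb, less than nearly all tested peaks (percentile 0.621). The 5 untested peaks of the locus had 0 to 14 counts per library. Of these, 4 were upstream, at 42.3, 27.0, 19.6 and 12.0 kb, and 1 lay 9.1 kb after the start. The peak at 19.6 kb had 0.988 ± 0.364 CPM in Vwf+Gata1+ libraries and 1.70 ± 0.276 CPM in Vwf-Gata1+ libraries, from 3 to 9 and 9 to 14 counts per library, and the groups met at 1.31 CPM. At 12.0 kb, replicate 3 of Vwf+Gata1+ cells had 0 counts, which allows up to 0.688 CPM (3 counts, counting error only).

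Inside the gene, a peak 15.8 kb after the start (123275577 to 123276670, 1094 bp) had nearly as much signal as the one at the start, and 15.4 CPM per kb against 15.3 there. It had 15.4, 14.45, 18.1 and 14.4 CPM in Vwf+Gata1+ libraries and 17.6, 17.7, 19.1 and 17.95 CPM in Vwf-Gata1+ libraries. All libraries of Vwf-Gata1+ cells lay above 3 of the 4 Vwf+Gata1+ libraries, and replicate 3 of Vwf+Gata1+ cells lay among them. The means were 15.6 ± 1.74 and 18.1 ± 0.690 CPM (SD, n = 4 each), and the log2 fold change was -0.22 ± 0.13 (SE; 95% interval -0.48 to 0.03; adjusted p by edgeR = 0.787). This was 1 of 4 tested Irf8 peaks with the lower mean in Vwf+Gata1+ cells. The ratio of this peak to the start peak within a library was 0.824 ± 0.199 in Vwf+Gata1+ cells, from 0.599 to 1.08. It was 0.985 ± 0.0828 in Vwf-Gata1+ cells, from 0.888 to 1.06 (SD, n = 4 each), and the ranges overlapped. The other tested gene body peak, at 7.7 kb, averaged 2.50 CPM with a log2 fold change of -0.11 ± 0.31 (SE). The peak downstream of the gene, at 27.1 kb (123287170 to 123287560), had 5.66, 8.26, 7.79 and 4.46 CPM against 5.36, 5.23, 3.90 and 5.69 CPM. Its highest values were replicates 2 and 3 of Vwf+Gata1+ cells, and the log2 fold change was 0.32 ± 0.21 (SE, adjusted p by edgeR = 0.836).

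At Csf1r most of the signal in the window lay inside the gene. The peak 2.7 kb after the start (61267087 to 61268780) was the widest of all members, at 1694 bp, and had the most CPM, at percentile 86.0 of tested peaks. Per kb of peak it had 11.7 CPM, at percentile 62.7. It lies in the interval 1 to 6 kb after the start that was set for the first introns, where FIRE is known to lie, but whether it covers FIRE itself was not analysed here. Its signal was 17.4, 20.6, 21.8 and 23.0 CPM in Vwf+Gata1+ libraries and 19.2, 15.8, 19.7 and 20.7 CPM in Vwf-Gata1+ libraries. Replicate 4 of Vwf+Gata1+ cells was the highest library and replicate 2 of Vwf-Gata1+ cells the lowest. The means were 20.7 ± 2.41 and 18.9 ± 2.12 CPM (SD, n = 4 each), and the log2 fold change was 0.13 ± 0.12 (SE, adjusted p by edgeR = 0.907). The 95% interval, -0.12 to 0.38, corresponds to a ratio between 0.920 and 1.30.

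The annotated start of Csf1r carried a narrow peak with few counts. Centred 0.3 kb after the start (61265425 to 61265659, 235 bp), it had 2.50, 0.563, 2.52 and 1.58 CPM in Vwf+Gata1+ libraries and 2.48, 2.15, 0.78 and 1.31 CPM in Vwf-Gata1+ libraries. Per kb it had 7.39 CPM (percentile 37.2), more than the 6.50 CPM of the wide gene body peak at 13.6 kb. The libraries of each group spanned more than a 3-fold range, from 3 to 19 counts in Vwf+Gata1+ and 4 to 19 in Vwf-Gata1+ libraries. The log2 fold change was 0.05 ± 0.38 (SE; 95% interval -0.72 to 0.82; adjusted p by edgeR = 0.992), and the variation between replicates, a biological coefficient of variation of 0.216, was at percentile 97.5 of tested peaks.

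A group of 3 peaks lay in the middle of the gene. At 12.7 kb (61277695 to 61278063) the values were 3.42, 5.25, 3.44 and 4.17 CPM against 2.88, 3.23, 2.54 and 3.65 CPM. At 13.6 kb (61278309 to 61279289) they were 8.43, 7.32, 6.19 and 4.89 CPM against 6.80, 5.23, 5.85 and 6.28 CPM. At 15.2 kb (61280234 to 61280583) they were 4.21, 6.76, 8.02 and 3.45 CPM against 6.93, 6.00, 6.44 and 5.25 CPM. Vwf+Gata1+ libraries held both the highest and the lowest value at 13.6 and at 15.2 kb. The log2 fold changes were 0.39 ± 0.25, 0.15 ± 0.20 and -0.20 ± 0.22 (SE), with edgeR adjusted p of 0.824, 0.94 and 0.925. Without replicate 4 of Vwf+Gata1+ cells the log2 fold change at 15.2 kb was -0.01. It was the one Csf1r peak with the lower mean in Vwf+Gata1+ cells, and its 16.8 CPM per kb was the highest of all members.

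Toward the 3' end the peak at 22.2 kb (61287190 to 61287617) had 3.42, 4.50, 3.90 and 4.60 CPM against 3.92, 4.46, 2.73 and 4.67 CPM, with a log2 fold change of 0.03 ± 0.24 (SE). The groups were interleaved. Just beyond the gene end, the peak at 25.9 kb (61290989 to 61291302) had 4.87, 2.44, 4.13 and 2.30 CPM against 3.40, 2.31, 1.95 and 2.19 CPM. The peak at 26.7 kb (61291719 to 61292080) had 3.03, 1.88, 2.06 and 2.01 CPM against 2.48, 1.69, 1.17 and 2.34 CPM. Replicate 1 was the highest library of its group at both of these peaks. The log2 fold changes were 0.46 ± 0.29 and 0.21 ± 0.32 (SE, adjusted p by edgeR = 0.82 and 0.95). Without replicate 1 of Vwf+Gata1+ cells they were 0.19 and 0.01. At 25.9 kb the 95% interval reached 1.04, just over 2-fold.

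**Figure D3:**
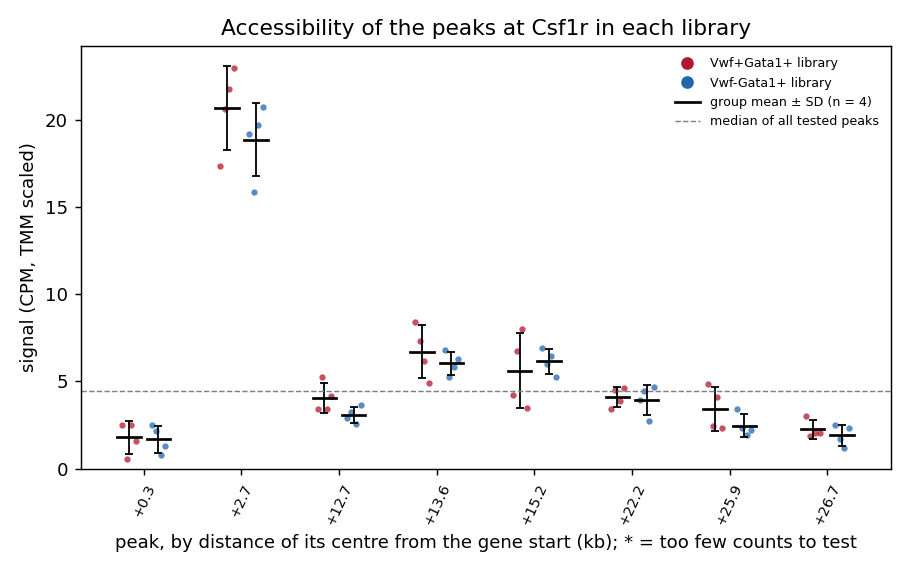
Signal of the 8 peaks at Csf1r in CPM after TMM scaling, 1 point per library, ordered by distance from the gene start in kb, with group means and SD (n = 4) in black. The peak at 2.7 kb stands near 20 CPM in both groups, and the groups overlap at all 8 peaks.

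More of the tested peaks had the higher mean in Vwf+Gata1+ cells than in Vwf-Gata1+ cells, 11 of 15 at Irf8 and 7 of 8 at Csf1r, where 50.7% of all tested peaks did. The median log2 fold change was 0.08 at Irf8 and 0.14 at Csf1r, against 0.00 over all tested peaks. Peaks of 1 locus share libraries and are not replicates, so this lean was given no test. None of these peaks rose or fell past the threshold. With each library left out in turn, 15 to 18 of 23 or 24 tested peaks leaned this way, and with total count scaling 17 of 23 did. The spread between replicates was typical, with a median biological coefficient of variation of 0.135 over the 23 peaks and 0.132 over all tested peaks.

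**Figure D4:**
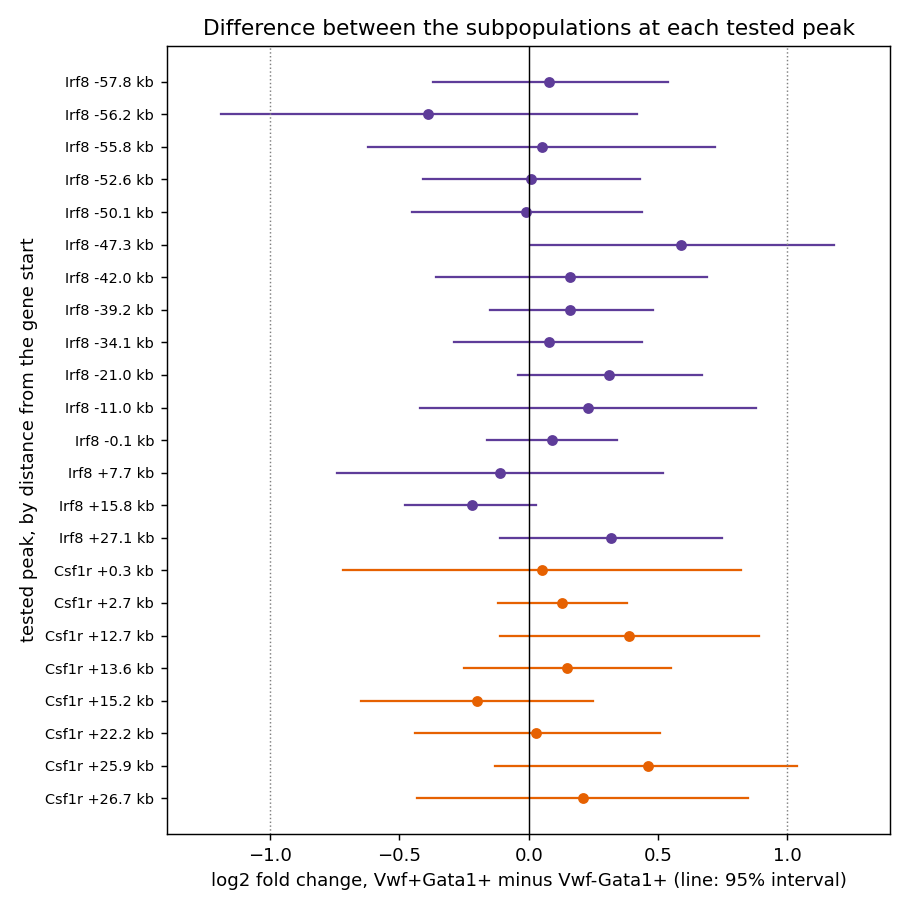
Log2 fold change (Vwf+Gata1+ minus Vwf-Gata1+) of the 23 tested peaks at Irf8 (purple) and Csf1r (orange) with 95% intervals, and dotted lines at 2-fold in either direction. Only the interval of the Irf8 peak 47.3 kb before the start leaves 0 outside, by 0.01, before adjustment.

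Summed over each locus, the signal was on average 3.81% higher in Vwf+Gata1+ cells at Irf8 and 10.3% higher at Csf1r, with overlapping groups. At Irf8 it was 110, 104, 104 and 106 CPM in Vwf+Gata1+ libraries and 111, 97.9, 97.9 and 102 CPM in Vwf-Gata1+ libraries. The highest and the lowest libraries were both of Vwf-Gata1+ cells, and all 8 lay within a 1.13-fold range. The group means were 106 ± 2.81 and 102 ± 6.08 CPM (SD, n = 4 each), a log2 ratio of 0.05, which was 0.10 without replicate 1 of Vwf-Gata1+ cells. At Csf1r the sums were 47.3, 49.4, 52.0 and 46.0 CPM against 48.1, 40.9, 41.1 and 46.4 CPM. Here replicates 2 and 3 of Vwf-Gata1+ cells were the lowest libraries, and the remaining 6 were interleaved. The means were 48.7 ± 2.63 and 44.1 ± 3.66 CPM, a log2 ratio of 0.14. These sums were given no test, since the windows were chosen with earlier results of these data known.

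The larger parts of each locus held similar shares of its signal in the 8 libraries, while the small parts varied 2-fold or more. The shares depend on the windows, and the Irf8 window reached much further before its gene than the Csf1r window. Upstream peaks held 56.6% ± 2.29 of the Irf8 signal (SD over the 8 libraries), the start peak 18.2% ± 1.99, the gene body 19.6% ± 2.89 and the downstream peak 5.57% ± 1.44. The upstream share ran from 54.2% to 60.1% and the downstream share from 3.98% to 7.97%. The upstream sum was 61.1 ± 3.83 CPM in Vwf+Gata1+ libraries and 56.8 ± 4.96 CPM in Vwf-Gata1+ libraries, while the gene body sum was 18.9 ± 2.96 and 21.8 ± 0.506 CPM (SD, n = 4 each). At the gene body the Vwf-Gata1+ libraries lay between 21.4 and 22.4 CPM, with 3 Vwf+Gata1+ libraries below and 1 above them. At Csf1r the gene body held 85.5% ± 4.19 of the signal, the start peak 3.73% ± 1.65 and the downstream peaks 10.8% ± 2.85. The start share ran from 1.14% to 5.29% and the downstream share from 7.58% to 16.7%. The ratio of the Irf8 to the Csf1r sum was 2.18 ± 0.159 in Vwf+Gata1+ libraries and 2.32 ± 0.0912 in Vwf-Gata1+ libraries, with overlapping ranges.

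**Figure D5:**
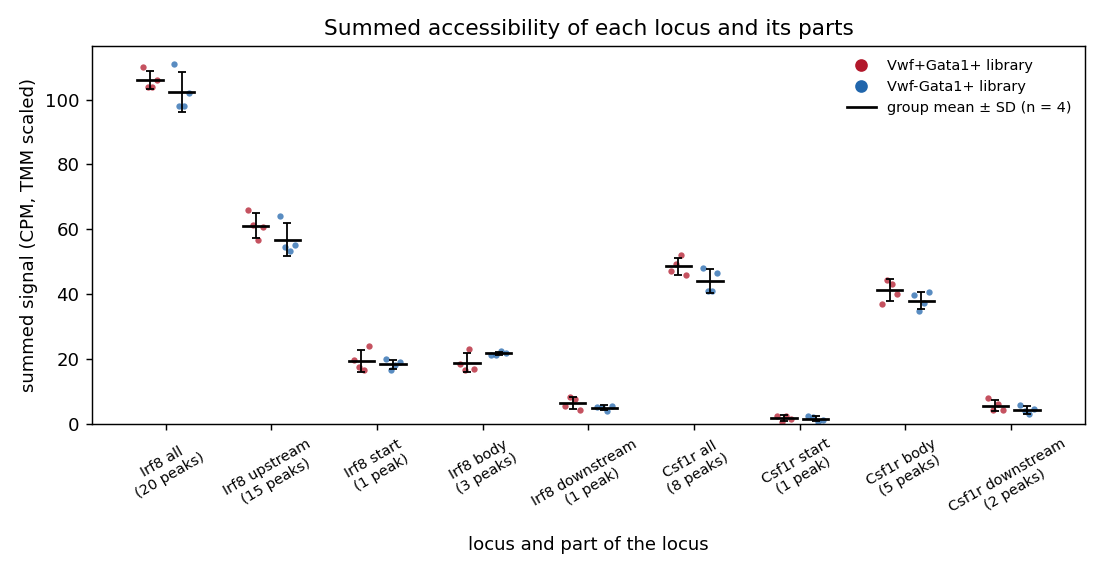
Summed CPM of all peaks at each locus and of its upstream, start, gene body and downstream peaks, 1 point per library, with group means and SD (n = 4) in black. The groups overlap in every sum, and upstream peaks make up most of the Irf8 signal in its window.

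Among the 28 peaks, replicate 3 of Vwf-Gata1+ cells was the lowest of the 8 libraries at 10, 6 at Irf8 and 4 at Csf1r. Replicate 1 of Vwf+Gata1+ cells was the highest at 6, and replicates 2 and 3 of that group at 5 each. How often each library was highest or lowest over all peaks was not counted, so these counts are not a trait of the loci. The total count of replicate 3 of Vwf-Gata1+ cells, 5447813, was the second lowest of the series. Replicate 3 of Vwf+Gata1+ cells had the lowest total, 4628997, and was the lowest library at 4 peaks and the highest at 5. The part of depth in these values was not tested. Whether the sorted cells carried open chromatin at megakaryocyte, erythroid or other marker genes was not analysed here, since no gene annotation of the mm9 build was used.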

How the data were processed

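The authors deposited raw counts per peak for 8 libraries. The genome build, per the submitters' processing notes, was mm9. Those notes name MACS2, Bowtie2, Picard, SAMtools, FastQC and Trim Galore, with no role or version. What a count is (read or fragment), any insertion shift, duplicate handling and peak merging are not given in the sources used here. Members were at least 200 bp wide, and a shift would move a cut by only a few bases.

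Groups came from the labelled cell type and replicate numbers from titles. Pairs of libraries within groups differed by more than sampling noise (chi-square per degree of freedom 1.325 to 2.125), so all 8 were kept. Peaks were filtered with edgeR's filterByExpr (minimum count 10, minimum total 15), which kept 97040 of 134473 (72.2%). Libraries were scaled by TMM and tested with edgeR's robust quasi-likelihood test, Benjamini-Hochberg adjusted over all tested peaks, threshold 0.05. Standard errors are the log2 fold change over the root of F, and intervals are at 95%. The test was checked on simulated data with planted differences larger than that of any member, so its power for smaller differences was not checked. Starts were read as 1-based. Gene positions are approximate. The rule's gene lengths differed from RefSeq's, another build, by 37 bp at Irf8 and 32 bp at Csf1r. Irf8 is on the plus strand in RefSeq's table, and Csf1r was taken to be. Coordinates were not converted, so a planned list of other monocyte genes and the planned marker check were not analysed. Levels are CPM, which grow with peak width, and CPM per kb is given where peaks are compared. Promoters came from RefSeq's table of 32851 windows for 27025 genes, which matched Irf8.

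The members and lists were chosen with earlier results of these data known. The naming rule covered start peaks, enhancer intervals, the peaks with the most CPM, the lowest p and extreme fold changes at Irf8 and every peak at Csf1r; further Irf8 peaks were described after their values were seen. The software was edgeR 4.0.16, DESeq2 1.42.0 and limma 3.58.1 in R 4.3.3, and Python 3.11.15.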

Additional observations from a re-analysis of the deposited data

Results flagged for a closer look

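In 60 groups of 4 values (28 peaks and 2 sums in each subpopulation), 3 had a library far from the other 3 by Dixon's ratio, at the limit that chance passes in about 1 of 20 groups. At the Irf8 peak 56.2 kb before the start, replicate 4 of Vwf-Gata1+ cells had 0.73 CPM where the others had 1.85 to 1.96. At the untested Irf8 peak 12.0 kb before the start, replicate 1 of Vwf-Gata1+ cells had 1.31 CPM where the others had 0.73 to 0.78. At the Csf1r peak 26.7 kb after the start, replicate 1 of Vwf+Gata1+ cells had 3.03 CPM where the others had 1.88 to 2.06. All have few counts.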

How the results depend on the processing

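No peak at Irf8 or Csf1r was called in any of the 16 other fits, which gave 377 tests of members and a lowest adjusted p of 0.471. These fits were a replicate block, RLE and total count scaling, no filter, a minimum of 1 CPM in 4 libraries, no robust estimation, DESeq2, limma-voom with quality weights, and each library left out. Unadjusted p under 0.05 was met by 0 members with total count scaling, DESeq2 and limma-voom, by 0 to 2 with a library left out and by 1 in each of the other 5 fits. DESeq2 gave no adjusted p for 3 members. The log2 ratios of the sums kept their sign under every alternative run, from 0.03 to 0.10 at Irf8 (0.05 as reported) and from 0.11 to 0.18 at Csf1r (0.14).

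With the replicate number as a block, 0 members were called and the lowest adjusted p was 0.471, although 375 higher and 136 lower peaks were called in the whole table. Deviations of same-numbered libraries correlated at 0.301, 0.163, 0.074 and 0.0103 for replicates 1 to 4, and the best match of 5 of 8 libraries was the one with their number. This is a hint from the data alone, and the labels do not pair the libraries.

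Of 23 tested peaks, 11 changed sign in some fit, always at an uncalled value, and the cause was not tested. At Irf8, total count scaling gave -0.01 at 52.6 kb before the start and no filter gave 0.0 at 50.1 kb, while limma-voom gave -0.27 at 55.8 kb, 0.0 at 52.6 kb and 0.02 at 50.1 kb. At Csf1r, limma-voom gave -0.03 at 0.3 kb. With each library left out, log2 fold changes before the Irf8 start ran from -0.11 to 0.23 at 57.8 kb, -0.26 to 0.36 at 55.8 kb, -0.08 to 0.08 at 52.6 kb, -0.13 to 0.11 at 50.1 kb, -0.03 to 0.33 at 42.0 kb, -0.07 to 0.19 at 34.1 kb and -0.03 to 0.15 at 0.1 kb. After it they ran from -0.45 to 0.04 at 7.7 kb. At Csf1r they ran from -0.20 to 0.32 at 0.3 kb, 0.00 to 0.29 at 13.6 kb and -0.08 to 0.13 at 22.2 kb. The other 12 kept their sign with each library left out, but their size moved. Before the Irf8 start they ran from -0.71 to -0.25 at 56.2 kb, 0.44 to 0.71 at 47.3 kb, 0.08 to 0.24 at 39.2 kb, 0.20 to 0.46 at 21.0 kb and 0.08 to 0.45 at 11.0 kb, and after it from -0.29 to -0.19 at 15.8 kb and 0.19 to 0.48 at 27.1 kb. At Csf1r they ran from 0.05 to 0.21 at 2.7 kb, 0.26 to 0.48 at 12.7 kb, -0.39 to -0.01 at 15.2 kb, 0.19 to 0.67 at 25.9 kb and 0.01 to 0.37 at 26.7 kb. Depth limits the peaks with few counts most: standard errors ran from 0.12 to 0.40.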

Other observations

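Downstream of the Irf8 window, up to 100 kb from the gene start, lay 14 further peaks, looked at after the values were seen. Enhancers about 32 and 56 kb after the mouse Irf8 start are among those known from dendritic cells and monocytes. Between the peaks centred 32.4 and 47.6 kb after the start there was no other peak. A peak 32.4 kb after the start (mm9, chromosome 8, 123292479 to 123292971) had few counts, with 1.64 ± 0.674 CPM in Vwf+Gata1+ libraries and 1.95 ± 0.383 CPM in Vwf-Gata1+ libraries (SD, n = 4 each). Its log2 fold change was -0.19 ± 0.34 (SE; adjusted p by edgeR = 0.964). A peak 56.6 kb after the start (123316559 to 123317260) had 7.90, 2.81, 4.58 and 5.46 CPM in Vwf+Gata1+ libraries and 4.97, 3.84, 1.76 and 3.79 CPM in Vwf-Gata1+ libraries. The groups overlapped, and the log2 fold change was 0.53 ± 0.27 (SE; adjusted p by edgeR = 0.753). Of the 14, the peak with the most CPM, at 123320132 to 123320543, had 10.2 ± 0.898 and 9.54 ± 2.48 CPM. Of the 12 tested, edgeR called 0, and 0 had an unadjusted p under 0.05.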
